A study of Xenopus laevis with 30 samples.

Results

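The genes described here encode proteins of the eye lens: the alpha crystallin cryaa, the beta crystallins cryba1, cryba2, cryba4, crybb1, crybb2 and crybb3, the crystallin crygn, and the lens membrane proteins lim2 and mip. They were picked by name, as the probe sets whose single gene symbol is one of these 10. The rule found 12 probe sets of 9 genes, among 15495 probe sets of 9271 genes with a single symbol and 32635 probe sets on the array, and no probe set used here carries crygn as its single symbol. Because Xenopus laevis is allotetraploid, a gene can have a copy on the long (.L) and on the short (.S) chromosome of a matching pair, and crybb1, crybb3 and mip each had a probe set for both copies. Of the 12 probe sets, 9 probe sets of 7 genes were bright enough to be tested.

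Crystallins are the abundant soluble proteins that make the lens clear and able to bend light. Alpha crystallins are small heat shock proteins that act as chaperones, while beta and gamma crystallins form a separate superfamily and are packed into the elongated lens fibre cells. In the frog embryo the lens forms from head ectoderm over the growing optic vesicle, and its posterior cells elongate into fibres. Mip, also called aquaporin 0, is the main water channel and an adhesion protein of the fibre membrane, and lim2 is another integral membrane protein of lens fibres.

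The study followed untreated wild-type Xenopus laevis embryos through 15 stages: cleavage and blastula stages 2, 5 and 9, gastrula stage 11, neurula stages 13, 17 and 19, stages 21, 23, 26 and 28 around tailbud formation, then 31, 37-38, 43 and the tadpole stage 48. Each stage has 2 arrays, biological replicates 1 and 2, and each array received total RNA pooled from several whole embryos. Values are signal intensities on a linear scale, with every array scaled to the same trimmed mean. A level from a whole embryo mixes lens with all other tissue, so fewer lens cells and less RNA per cell cannot be told apart, and the 2 arrays a stage limit the precision.

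Replicate arrays correlated at Pearson's r of 0.963 to 0.973 across probe sets, and no array was a copy of another. The median signal of an array lay between 106 and 184 units. It served here as a floor, not a measured background: a stage counts as above it when both arrays exceed their own median. Where the dimmer stage of a pair lies under the floor, the fold is a lower bound against the floor and is written "at least". The geometric mean of 12 added poly-A control probe sets was 372 units at stage 21, 245 at stage 31 and 188 at stage 48. Scaling to these controls moved the median over all tested probe sets to 0.60 on the log2 scale for stage 31 over 21, against -0.0019 as deposited, and to 0.25 for stage 48 over 31, against -0.13 as deposited. Median centring moved it the other way, to -0.21 and -0.27, and no lens change in these comparisons turned negative. Of 11 tested markers of other tissues in the same RNA, 4 were called higher and none lower at stage 31 over 21. The 4 were fetub.S, hba2.L, nefm.L and snap25.L, and of all tested probe sets 26.9% were called higher and 25.4% lower. At stage 48 over 31, 3 markers were called higher and 1 (krt12.4.S) lower, against 29.7% and 39.7% of all.

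All 9 tested lens probe sets followed the same broad course: dim through gastrulation and neurulation, and brightest at stage 48. The first stage above the floor ranged from 23 (lim2.L) to 48 (mip.S), and being above it at some stage was required for testing. The signals of the 12 probe sets are shown by stage in the plot of both replicates. Over all 15 stages every one of the 9 changed by limma's F test, with adjusted p between 1e-15 and 3e-08, and 99.8% of all 23403 tested probe sets did so too. The remaining 3 probe sets, crybb2.L, crybb3.L and crybb3.S, stayed under the floor on all 30 arrays and were not tested.

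**Figure D1:**
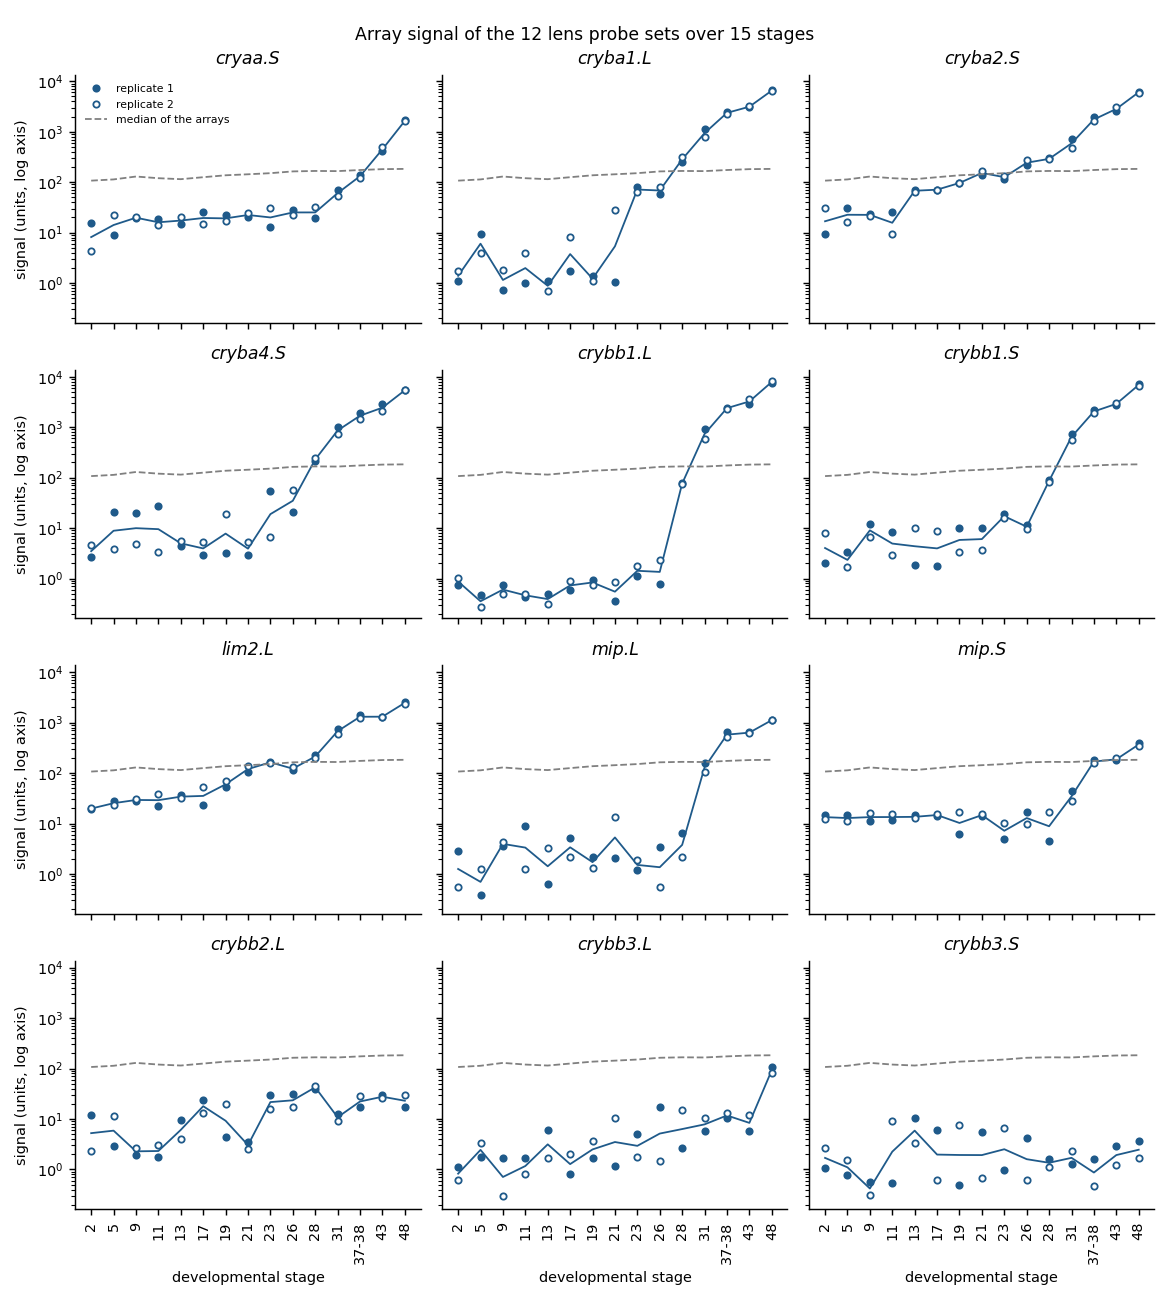
Signal intensity (log scale, arbitrary units) of the 12 lens probe sets at each of the 15 stages. Points are the 2 replicate arrays, and the dashed line is the array median. In 9 panels the points leave the dashed line behind by stage 48, and crybb2.L, crybb3.L and crybb3.S stay under it.

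The alpha crystallin crossed the floor later than the tested beta crystallins did, while crybb2.L, crybb3.L and crybb3.S never crossed it. The stage of crossing also depends on how bright a probe set is. The probe set cryaa.S read 19.5 and 32.4 at stage 28, 70.0 and 52.5 at stage 31, 141 and 123 at stage 37-38, 413 and 487 at stage 43 and 1689.6 and 1596 at stage 48. Both arrays were under the floor until stage 37-38 and over it from stage 43, and each of the last 3 stages lay above the one before with no overlap of replicates. Between stages 2 and 26 its 20 arrays read between 4.28 and 30.7 units, with a median of 19.8. Stage 43 was at least 2.57-fold brighter than stage 37-38 (log2 change 1.77, SE 0.54, adjusted p = 0.016). Stage 48 was 3.66-fold brighter than stage 43 (log2 change 1.87, SE 0.54, adjusted p = 0.0069). In the fit over all stages, cryaa.S was the 1 lens probe set called in both of these steps. Of all tested probe sets, 11.5% were called higher in the first of them and 17.1% in the second. With only the 2 stages of a step in the fit, cryba1.L, cryba2.S, crybb1.L and crybb1.S were called in both steps too. The same held with 50 units added before the log.

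The acidic beta crystallins crossed the floor earlier. The probe set cryba1.L read 57.4 and 81.5 at stage 26, 255 and 316 at stage 28, 1134 and 778 at stage 31, 2489.9 and 2248 at stage 37-38, 3099.9 and 3168 at stage 43 and 6659 and 6427 at stage 48, so both arrays were over the floor from stage 28. Through stage 21 its signal was near the bottom of the scale, at 1.04 and 27.5 units at stage 21, and it read 81.8 and 62.5 at stage 23, still under the floor. That early step was called (log2 change 3.74, SE 1.01, adjusted p = 0.013), but without stage 21 replicate 1, the lower of that pair, the log2 change was 1.38 with an adjusted p of 0.33 by limma. The call was also lost without stage 23 replicate 1 (log2 change 3.54, adjusted p = 0.08) or with only these 2 stages in the fit (adjusted p = 0.23). Cryba1 is a structural beta crystallin of the fibre cell.

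The probe set cryba2.S had the earliest called step among the crystallins. It read 71.1 and 64.2 units at stage 13, against 25.9 and 9.5 at stage 11, and this step was called (log2 change 2.11, SE 0.43, adjusted p = 0.0003), although all 4 values are under the floor and no fold is given. Signals then read 141 and 164 units at stage 21 and 117 and 135 at stage 23, close to the floor. From stage 26, where both arrays first exceeded it, the values were 217 and 272 at stage 26, 295 and 285 at stage 28, 711 and 485 at stage 31, 1917 and 1599.8 at stage 37-38, 2632 and 3054 at stage 43 and 6235 and 5893 at stage 48. From stage 28 on, both arrays of each stage lie above both arrays of the one before.

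The probe set cryba4.S read 20.9 and 58.0 at stage 26, 211 and 249 at stage 28, 1021 and 724 at stage 31, 1919.7 and 1484 at stage 37-38, 2839.9 and 2095 at stage 43 and 5422 and 5354 at stage 48. Its course therefore starts like that of cryba1.L, with both arrays first over the floor at stage 28. At stages 37-38 and 43 its replicates were 1919.7 and 1484 and then 2839.9 and 2095, the widest spread in this group at these stages. In RefSeq v10.1 the gene carries cryba1 as a synonym and overlaps its neighbour cryba1.2.S, and cryba1.L lies beside cryba1.2.L, so which of these transcripts each probe set reads was not tested.

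The basic beta crystallin crybb1 was measured by a probe set for each copy, and both gave the same order of stages. The probe set crybb1.L read 0.791 and 2.31 at stage 26, 77.9 and 74.8 at stage 28, 936 and 578 at stage 31, 2439 and 2331 at stage 37-38, 2935 and 3573 at stage 43 and 7637 and 8131 at stage 48. For crybb1.S the values were 11.6 and 9.79 at stage 26, 89.0 and 83.7 at stage 28, 748 and 552 at stage 31, 2175 and 1933 at stage 37-38, 2755 and 3049 at stage 43 and 7148 and 6628 at stage 48. Both copies crossed the floor at stage 31, and from stage 28 on both arrays of each stage lay above both arrays of the one before. As a percentage of its own stage 48 mean, crybb1.L stood at 9.60%, 30.2% and 41.3% at stages 31, 37-38 and 43, and crybb1.S at 9.43%, 29.8% and 42.1%. Whether each probe set also hybridises with the other copy was not tested. In RefSeq v10.1 each copy lies beside the tpst2 gene of its own chromosome set.

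The other basic beta crystallins gave no signal over the floor. The highest of the 30 arrays read 45.6 units for crybb2.L, 106 for crybb3.L and 10.6 for crybb3.S. The crybb3.L values were 106 and 81.0 at stage 48, against 5.81 and 10.5 at stage 31, and its stage 48 arrays were the brightest it had. The genes crybb3.L and crybb2.L are neighbours in RefSeq v10.1. A dim probe set gives a bound for its own oligonucleotides and says nothing firm on the gene.

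Of the membrane proteins, lim2.L reached the floor first, at stage 23, while cryba2.S had exceeded it on 1 of 2 arrays at stage 21. Lim2.L read 105 and 137 units at stage 21, 169 and 158 at stage 23 and 114 and 131 at stage 26, over the floor at stage 23 and under it again at stage 26. From then on it read 228 and 199 at stage 28, 754 and 608 at stage 31, 1402 and 1219.7 at stage 37-38, 1309 and 1316 at stage 43 and 2557 and 2386 at stage 48. Stages 37-38 and 43 overlap, with a log2 change of 0.01 between them (confidence interval -0.59 to 0.60). No rise was therefore seen between a climb to stage 37-38 and a further step to stage 48. Earlier steps of lim2.L were called while still under the floor: stage 21 over 19 (log2 change 1.00, SE 0.28, adjusted p = 0.018) and stage 19 over 17 (log2 change 0.76, SE 0.28, adjusted p = 0.045). The replicates of stages 19 and 17 overlap, and without stage 17 replicate 1 that log2 change was 0.16 with an adjusted p of 0.71. Without stage 19 replicate 2 it was 0.56 with an adjusted p of 0.28, and with only the 2 stages in the fit the adjusted p was 0.17. Without stage 19 replicate 1, the stage 21 over 19 change was 0.80 with an adjusted p of 0.18, and without stage 21 replicate 2 it was 0.81 with an adjusted p of 0.17.

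The mip probe sets also showed no clear change between stages 37-38 and 43, but whether they held level cannot be told. The probe set mip.L read 3.40 and 0.545 at stage 26, 6.45 and 2.21 at stage 28, 160.3 and 105 at stage 31, 643 and 519 at stage 37-38, 642 and 626 at stage 43 and 1126 and 1115 at stage 48, and crossed the floor at stage 37-38. For mip.S the values were 17.2 and 9.61 at stage 26, 4.53 and 17.2 at stage 28, 43.6 and 27.3 at stage 31, 184 and 156 at stage 37-38, 180.2 and 195 at stage 43 and 401 and 339 at stage 48, and both arrays were over the floor at stage 48 alone. In both copies the replicates of stages 37-38 and 43 overlap, and those of stage 48 lie above them. From stage 37-38 to 43 the log2 change was 0.13 for mip.L (confidence interval -2.30 to 2.57) and 0.14 for mip.S (-1.07 to 1.36). These intervals are too wide to tell a plateau from a rise or a fall. In addition, mip.S was not above the floor on both arrays at either stage. Mip.L and mip.S stood at 11.8% and 9.59% of their own stage 48 means at stage 31, and at 51.9% and 46.0% at stage 37-38.

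Set against its own stage 48 mean, each probe set gives a timing that can be set beside that of another probe set. At stage 37-38 the membrane proteins stood at 46.0% to 53.0%, the beta crystallins at 29.0% to 36.2%, and cryaa.S at 8.03%. At stage 43 the membrane proteins stood at 50.7% to 56.6%, the beta crystallins at 41.3% to 47.9%, and cryaa.S at 27.4%. These are ranges of stage means. Taken by replicate, the classes do not overlap at stage 37-38, while at stage 43 replicate 1 of cryba4.S (52.7%) and replicate 2 of cryba2.S (50.4%) exceed replicate 1 of mip.S (48.7%). These are 9 probe sets of 7 genes, and the difference between the classes was not tested. The probe set cryaa.S is under the floor at stage 37-38, and mip.S is not above it on both arrays at either stage. The plot of percentages shows the 3 classes apart at stage 37-38, cryaa.S being alone in its class. At stage 31 the membrane proteins and beta crystallins were not apart. There lim2.L stood at 27.6%, but mip.L (11.8%) and mip.S (9.59%), both under the floor, lay among the beta crystallins (9.43% to 16.2%). Every course meets at stage 48 by construction. Gamma crystallins, described further on and not in the plot, stood at 12.3% (crygbl.1.L), 13.0% and 13.8% (crygbl.4.S) and 27.7% (crygdl.11.S) at stage 37-38. Cryga.1.L, under the floor there, stood at 5.29%. The beta crystallin crybb3.L, not tested, not in the plot and under the floor at every stage, stood at 12.7%. A low percentage at that stage was therefore not particular to cryaa.S.

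**Figure D2:**
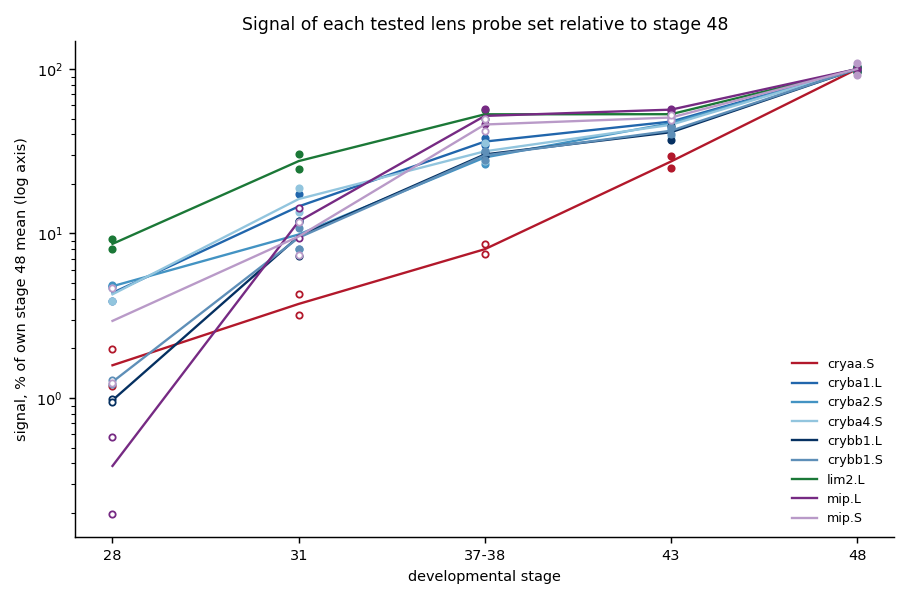
Signal of the 9 tested lens probe sets as a percentage of their own stage 48 mean (y axis, log scale) at stages 28 to 48 (x axis). Lines join stage means, points are the 2 replicates, and open points mark a stage not above the floor on both arrays. At stage 37-38 the lim2 and mip lines sit highest, the beta crystallins just under them and cryaa.S lowest, at 8.03%. At stage 31 the mip lines lie among the beta crystallins.

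Stage 31, on which several comparisons rest, had unequal replicates. All 9 tested lens probe sets were brighter in replicate 1 than in replicate 2, by 0.31 to 0.70 on the log2 scale with a median of 0.54. For all tested probe sets the 10th to 90th percentile of that difference ran from -0.28 to 0.26. Stage 37-38 replicate 1 was the brighter for 9 of 9 too, with a median of 0.21, while replicate 1 was the brighter for 2 of 9 at stage 43 and for 8 of 9 at stage 48. Genes outside the lens set differed too: of 954 other probe sets at least 2-fold brighter at stage 37-38 than at stage 28, 70.6% were higher in stage 31 replicate 1, as were 32% of 687 that were at least 2-fold dimmer and 50.3% of 14248 in between. Haemoglobin hba2.L read 1239 and 642 on these arrays. The source of this difference was not tested, and the counts of called lens probe sets that rest on stage 31 are given with and without its arrays. The other gene lists were not refitted without them.

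**Figure D3:**
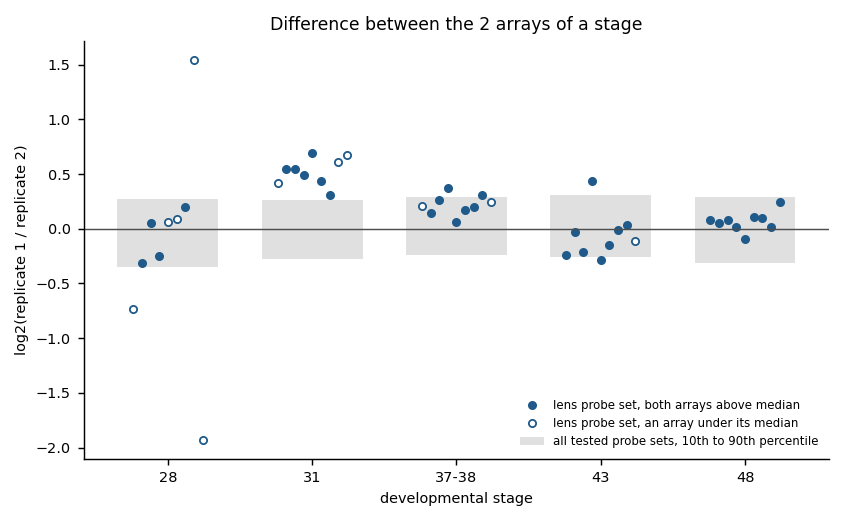
Log2 of replicate 1 over replicate 2 (y axis) for the 9 tested lens probe sets at stages 28 to 48 (x axis). Grey bars span the 10th to 90th percentile of all tested probe sets, and open points have an array under its median. All 9 points of stage 31 lie above the grey bar, from 0.31 to 0.70.

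The first interval compares the tailbud stage 31 with the neurula-to-tailbud stage 21. Of the 9 tested lens probe sets 8 were called higher and none lower, against 26.9% higher and 25.4% lower of all tested probe sets. Both stage 31 arrays lay above both stage 21 arrays for 9 of 9, as they did for 39.8% of all tested probe sets. Testing needed both arrays of some stage over the floor, which each of the 9 met only at stages after 21. Cryba1.L and cryba4.S met it from stage 28 on and both crybb1 copies from stage 31 on. Mip.L, cryaa.S and mip.S met it only after stage 31. The filter itself therefore leaned toward stages later than 21. The median log2 change was 4.61 for the lens probe sets, against -0.0019 for all tested. That median is the value of mip.L, which was under the floor at both stages, so it is not to be read as a fold. Crybb1.L read 936 and 578 at stage 31, against 0.355 and 0.849 at stage 21, at least 5.13-fold higher (log2 change 10.39, SE 0.69, adjusted p = 2e-10). Cryba1.L was at least 6.55-fold higher (adjusted p = 4.4e-06), cryba4.S at least 6.0-fold (adjusted p = 7e-06) and crybb1.S at least 4.48-fold (adjusted p = 1.2e-06). Cryba2.S, over the floor on 1 of the 2 stage 21 arrays, was 3.85-fold higher (log2 change 1.94, SE 0.43, adjusted p = 0.001). Lim2.L was at least 4.72-fold higher (log2 change 2.49, SE 0.28, adjusted p = 3.8e-07).

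The remaining 3 probe sets were under the floor at both stages, so no fold is given. Mip.L read 160.3 and 105 at stage 31, against 2.07 and 13.5 at stage 21 (log2 change 4.61, SE 1.17, adjusted p = 0.0025). Cryaa.S read 70.0 and 52.5 at stage 31, against 20.3 and 24.6 at stage 21 (log2 change 1.44, SE 0.54, adjusted p = 0.03). Mip.S, at 43.6 and 27.3 at stage 31, against 13.9 and 15.5 at stage 21, was not called (log2 change 1.23, SE 0.58, adjusted p = 0.083). Without stage 31 replicate 1, stage 31 replicate 2 or stage 21 replicate 2, cryaa.S was no longer called and 7 remained, and without stage 21 replicate 1, mip.L was lost as well and 6 remained. No share of all tested probe sets is given for these fits without 1 array. With only these 2 stages in the fit, 8 were called (background 29.6%), with mip.S gained and cryba1.L lost, and with 50 units added all 9 were (31.3%).

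The second interval compares stage 48, a feeding tadpole, with stage 31. All 9 tested lens probe sets were called higher and none lower, against 29.7% higher and 39.7% lower of all tested probe sets, and for 9 of 9 both stage 48 arrays lay above both stage 31 arrays, as for 39.4% of all. The median log2 change was 3.37 for the lens probe sets, against -0.13 for all tested. Testing required both arrays of some stage over the floor. Mip.S met this at stage 48 alone, cryaa.S at stages 43 and 48 alone and mip.L only from stage 37-38 on. For these probe sets the filter itself leaned toward a higher stage 48, and crybb2.L, crybb3.L and crybb3.S were left out. With no filter, 10 of all 12 lens probe sets were called higher, while 17872 of 32539 probe sets were called in either direction. The share of all called higher alone is not given for that fit, so these counts are not alike. Cryaa.S read 1689.6 and 1596 at stage 48, against 70.0 and 52.5 at stage 31, at least 9.91-fold higher (log2 change 4.76, SE 0.54, adjusted p = 1.2e-07, 95% interval 3.64 to 5.88). Crybb1.L and crybb1.S were both 10.7-fold higher (adjusted p = 0.00018 and 0.0012), and cryba2.S 10.3-fold (adjusted p = 1.4e-06). Cryba1.L was 6.97-fold higher (log2 change 2.80, SE 1.01, adjusted p = 0.019) and cryba4.S 6.27-fold (log2 change 2.65, SE 1.07, adjusted p = 0.035).

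Among the membrane proteins, lim2.L was 3.65-fold higher (log2 change 1.87, SE 0.28, adjusted p = 7e-06, 95% interval 1.28 to 2.46). Mip.L was at least 6.76-fold higher (log2 change 3.11, SE 1.17, adjusted p = 0.023) and mip.S at least 2.22-fold (log2 change 3.42, SE 0.58, adjusted p = 2.9e-05). Cryba4.S and mip.L lost their calls without stage 31 replicate 1, which left 7. Those probe sets and cryba1.L lost theirs without stage 31 replicate 2 or without either stage 48 array, which left 6 each time. For these fits without 1 array no share of all tested probe sets is given. All 9 were called with only these 2 stages in the fit (background 33.1%) and with 50 units added (33.9%).

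**Figure D4:**
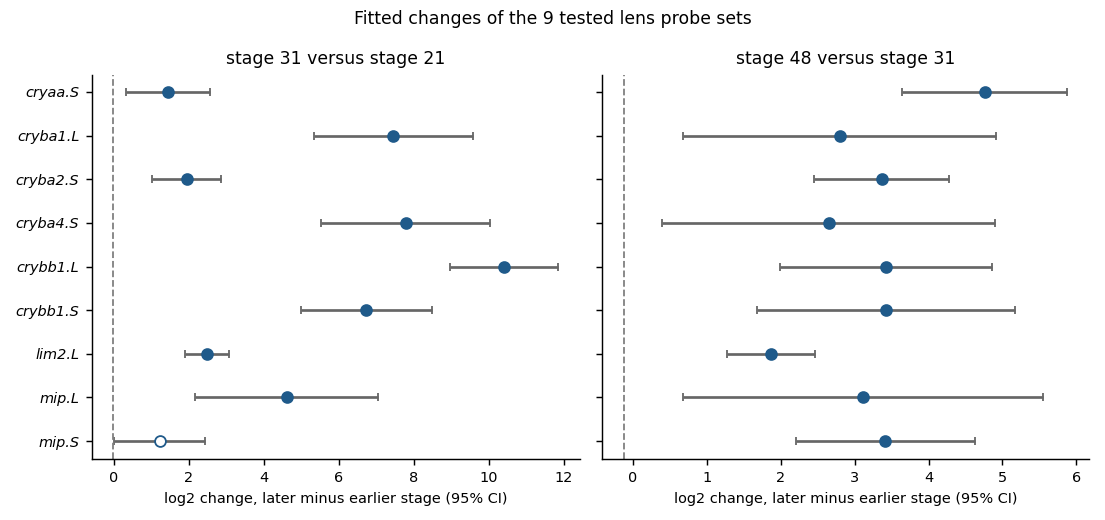
Log2 change of the 9 tested lens probe sets for stage 31 over 21 and stage 48 over 31, with 95% intervals. Filled points were called at an adjusted p of 0.05, the open point (mip.S, 1.23) was not, and the dashed line is the median of all tested probe sets. Every point lies above the dashed line in both panels.

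Between neighbouring stages, calls were spread along the course. At stage 28 over 26, crybb1.L, crybb1.S and lim2.L were called, 3 of 9 against 11.3% of all tested probe sets. At stage 31 over 28, crybb1.L, crybb1.S, lim2.L, mip.L and mip.S were called, 5 of 9 against 9.96%. At stage 37-38 over 31 the 3 called were cryba2.S, lim2.L and mip.S, against 11.8%. At stage 43 over 37-38 the 1 called was cryaa.S, against 11.5%, and at stage 48 over 43 the 3 called were cryaa.S, cryba2.S and lim2.L, against 17.1%. The background of the earlier calls was 31.1% at stage 13 over 11, 19.3% at 19 over 17, 9.43% at 21 over 19 and 10.1% at 23 over 21. No lens probe set was called at stage 5 over 2, 9 over 5, 11 over 9, 17 over 13 or 26 over 23, where 18.3%, 20.4%, 28.8%, 20.5% and 18.3% of all tested probe sets were called higher. None was called lower in any of the 14 steps, where the share of all tested probe sets called lower was, in order of stage, 13.7%, 18.4%, 31.5%, 37.1%, 16%, 12.9%, 7.93%, 9.54%, 13.3%, 12.2%, 11.5%, 16.2%, 19% and 29%. Both later arrays lay above both earlier ones for 6 of 9 at stage 28 over 26 (33.8% of all tested), 9 at 31 over 28 (31%), 9 at 37-38 over 31 (33.7%), 6 at 43 over 37-38 (32.5%) and 9 at 48 over 43 (36.4%).

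The fit takes 1 spread per probe set over all 15 stages, the dim early ones included. The median difference between replicates of mip.L was 2.06 at stages 2 to 26 and 0.17 at stages 31 to 48 on the log2 scale, and that of cryba1.L 0.94 at stages 2 to 26 and 0.10 at stages 31 to 48. This was not so for every lens probe set: that of cryba2.S was 0.21 at stages 2 to 26 and 0.24 at stages 31 to 48, and that of lim2.L 0.23 at stages 2 to 26 and 0.15 at stages 31 to 48. With only the 2 stages of a step in the fit, 5 of 9 lens probe sets were called at stage 28 over 26 (background 12.7%), 8 at 31 over 28 (13.2%), 9 at 37-38 over 31 (19.3%), 5 at 43 over 37-38 (18.5%) and 9 at 48 over 43 (24.5%). With 50 units added before the log, these counts were 5 (17.3%), 9 (15.7%), 9 (19.3%), 5 (19.2%) and 9 (26.1%). By both approaches the 5 called at stage 43 over 37-38 were cryaa.S, cryba1.L, cryba2.S, crybb1.L and crybb1.S, and the 4 not called were cryba4.S, lim2.L, mip.L and mip.S. The log2 change of lim2.L over that step was 0.01 (95% interval -0.59 to 0.60), that of mip.L 0.13 (-2.30 to 2.57) and that of mip.S 0.14 (-1.07 to 1.36), all in the 15-stage fit.

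These step counts moved when single arrays were left out. No share of all tested probe sets is given for those fits, so whether lens probe sets moved more than others cannot be told. Leaving out any array of stages 26 or 28 left 1 call at stage 28 over 26, and leaving out stage 28 replicate 1, stage 28 replicate 2 or stage 31 replicate 1 left 3 at stage 31 over 28. That step had 4 calls without stage 31 replicate 2 and 7 without either stage 2 array, cryaa.S and cryba2.S being added. At stage 37-38 over 31, none was called without stage 31 replicate 2 and 1 without stage 37-38 replicate 1. At stage 43 over 37-38, none was called without stage 37-38 replicate 1, stage 37-38 replicate 2 or stage 43 replicate 2. At stage 48 over 43, 1 was called without stage 43 replicate 1 or stage 48 replicate 1. In addition, lim2.L lost its call at stage 28 over 26 and cryba2.S its call at stage 48 over 43 without any of many arrays of other stages, which left 2 in each step.

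The gamma crystallins, which with the beta crystallins fill the fibre cells, were looked at after their values had been seen and carry no test. Of 8 probe sets of 7 genes, 5 probe sets of 4 genes exceeded the floor on both arrays of a stage. The first of 2 probe sets for crygbl.4.S read 108 and 56.2 at stage 31, 1715 and 1807 at stage 37-38, 5775 and 7351 at stage 43 and 13334 and 13741 at stage 48. On the other of them, stage 31 read 183 and 80.8 and stage 48 14879.6 and 15573. Crygbl.1.L read 37.6 and 31.5 at stage 31, 658 and 608 at stage 37-38, 1757 and 2036 at stage 43 and 5010.4 and 5275 at stage 48. The first probe set for crygbl.4.S and that for crygbl.1.L were under the floor at stage 31 and over it at stage 37-38. Crygdl.11.S also first exceeded it on both arrays at stage 37-38, with 979 and 1006 units there and 173 and 98.9 at stage 31. Cryga.1.L was over the floor at stage 48 alone, with 1305 and 1236 units there and 115 and 228 at stage 43.

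Other crystallin-related proteins did not share one course. Of 4 tested genes, 3 were called higher at stage 31 over 21 and 2 higher and 1 lower at stage 48 over 31, with the same shares of all tested probe sets behind these counts as for the lens probe sets. Cryl1.L, an enzyme known as lambda crystallin in rabbit, read 836 and 817 at stage 31, against 39.4 and 51.0 at stage 21 (at least 5.76-fold higher, adjusted p = 6.9e-11). Hspb1.S, a small heat shock protein related to the alpha crystallins, read 529 and 598 at stage 31, against 81.4 and 131 at stage 21 (adjusted p = 0.00059). Cryz.L, the quinone reductase known as zeta crystallin in guinea pig, read 548 and 427 at stage 48, against 31.9 and 43.9 at stage 31 (at least 2.92-fold higher, adjusted p = 3.6e-08). The median log2 changes of these genes were 1.88 and 0.98 in the first and second interval. Most such proteins are made in many tissues.

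For genes listed under structure and junctions of lens fibres, the shares called were close to those of all tested probe sets. Of 12 tested genes, 3 were called higher and 4 lower at stage 31 over 21, against 26.9% and 25.4% of all. At stage 48 over 31, 4 were called higher and 4 lower, against 29.7% and 39.7% of all. The median log2 changes were -0.08 and 0.08. Bfsp1.L, which encodes the beaded filament protein filensin, read 518 and 418 at stage 48, against 80.9 and 32.1 at stage 31 (at least 2.81-fold higher, adjusted p = 0.018). Gja1.L, a gap junction connexin made in many tissues, read 441 and 615 at stage 48, against 150.3 and 154 at stage 31 (adjusted p = 0.034). Col8a1.S, a short-chain collagen, read 79.1 and 83.4 at stage 48, against 691 and 820.1 at stage 31 (at least 4.10-fold lower, adjusted p = 3.1e-05). At stage 31 over 21, epha2.L, caprin2.L and tdrd7.L fell by 1.29, 0.95 and 0.53 on the log2 scale. Each had been brighter long before: caprin2.L read 3293 and 3189 at stage 2, tdrd7.L 1292 and 1130 at stage 9 and epha2.L 1335 and 1193 at stage 17. Whether lens contributes to their signals was not tested.

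Among transcription factors listed for lens and eye, the share called lower was near that of all probe sets or under it. Of 16 tested genes, none was called higher and 4 lower at stage 31 over 21, against 26.9% higher and 25.4% lower of all tested probe sets. At stage 48 over 31, 2 were called higher and 5 lower, against 29.7% higher and 39.7% lower of all. The median log2 changes were -0.44 and -0.10, and the difference from other genes was not tested. Sox3.S, sox2.L and six6.L were the largest changes of the first interval: sox3.S read 1389 and 1449.6 at stage 31, against 3038 and 2899 at stage 21 and six6.L 510.4 and 558 at stage 31, against 1224 and 1129 at stage 21 (adjusted p = 8.9e-12 and 0.047). Sox2.L fell by 0.61 on the log2 scale (adjusted p = 3.6e-07). Foxe1.L, listed in RefSeq v10.1 with the synonyms FoxE5 and ttf2, was at least 1.59-fold higher at stage 48. It read 226 and 307 at stage 48, against 88.5 and 90.2 at stage 31 (adjusted p = 0.00033). Whether lens contributes to its signal was not tested. Otx2.L and sox1.S were lower at stage 48, by 1.55 and 1.77 on the log2 scale. Several of the listed factors also act in brain and retina, which the whole embryos contain.

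Photoreceptor genes, the other abundant products of the eye, rose mostly after stage 31. Of 17 tested genes, 7 were called higher and 1 lower at stage 31 over 21 (median log2 change 1.36), and 16 higher and none lower at stage 48 over 31 (median 5.35). Of all tested probe sets, 26.9% were called higher in the first comparison and 29.7% in the second. Sag.L, the rod arrestin, read 4749 and 4712 at stage 48, against 8.75 and 2.93 at stage 31 (at least 28.5-fold higher, adjusted p = 1.1e-07). Rbp3.L, a retinoid-binding protein of the photoreceptor matrix, was at least 16.8-fold higher and rom1.L, an outer segment membrane protein, at least 5.87-fold. Testing needed both arrays of some stage over the floor. Sag.L, rbp3.L and rom1.L did not meet this at stage 31, so for such genes the filter itself leaned toward other stages. The median of 5.35 includes values under the floor and is not to be read as a fold. The transducin subunit gngt1.L was already higher at stage 31 than at stage 21, by 2.82 on the log2 scale. The factor crx.S was higher by 2.07, but its signal was brightest long before the eye forms, at 2725 and 2915 units at stage 11, and lowest after that at stage 26, with 55.4 and 62.4.

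Of 10 tested genes of the retinal pigment epithelium, 7 were called higher and 2 lower at stage 31 over 21 (median log2 change 1.82), against 26.9% higher and 25.4% lower of all tested probe sets. At stage 48 over 31, 3 were called higher and 4 lower (median -0.19), close to the 29.7% and 39.7% of all. Tyrp1.L, a melanin enzyme, read 6024 and 5391 at stage 31, against 241 and 247 at stage 21 (23.4-fold higher, adjusted p = 8.3e-15). Rpe65.S, the retinoid isomerase, read 90.9 and 109 at stage 48, against 1244 and 1317 at stage 31 (at least 6.98-fold lower, adjusted p = 0.00054). Melanin enzymes are also made by skin pigment cells.

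**Figure D5:**
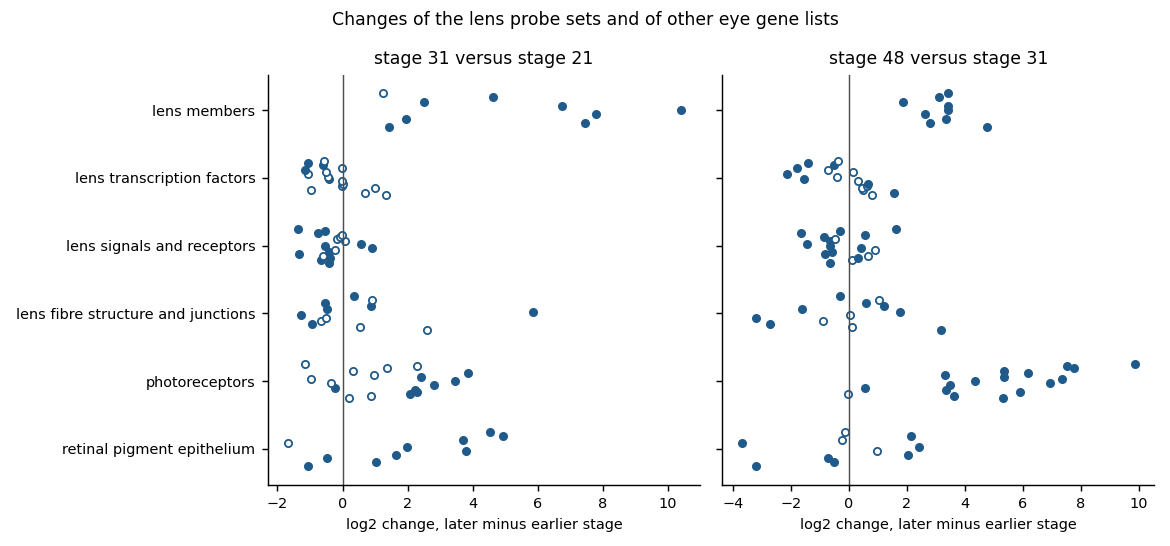
Log2 change of each tested gene in 6 lists (lens members, lens transcription factors, lens signals, lens fibre structure, photoreceptors, retinal pigment epithelium) for stage 31 over 21 and stage 48 over 31. Filled points were called at an adjusted p of 0.05. The lens members are all above 0 in both intervals, and photoreceptors reach 9.87 (sag.L) in the second. Sag.L was under the floor at stage 31.

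Genes outside the set were ranked by how closely their course over the 15 stage means, floored at the array median, followed the median course of the 7 lens genes. Among 5023 candidate genes the closest was scg2.L, a secretory granule protein of neuroendocrine cells, with a Pearson's r of 0.9990. It read 410.4 and 399 at stage 31, 793 and 766 at stage 37-38, 1070.2 and 1101 at stage 43 and 2086 and 2039 at stage 48. The others were ephx1.L, MGC84384, gpm6a.L, klc1.S, LOC446916, sez6l2.S, lum.L, aldh1a1.L and olfm2.L, with r between 0.9951 and 0.9982. Gpm6a is a neuronal membrane glycoprotein, klc1 a kinesin light chain, lum the proteoglycan lumican of connective tissue and cornea, and aldh1a1 a retinaldehyde dehydrogenase. The lens genes themselves had r of 0.9988 for cryba4, 0.9985 for cryba1, 0.9971 for cryba2, 0.9959 for crybb1, 0.9954 for lim2, 0.9666 for mip and 0.8658 for cryaa. The reference course is the median of these same 7 genes, so their own r are high in part by construction. At stages under the floor every gene takes the array median, which also raises r between genes dim at the same stages. The 15 points are shared stages of the same arrays, so all these r describe likeness of course only.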

How the data were processed

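Pooled whole-embryo RNA from 15 stages was hybridised to 30 Affymetrix Xenopus laevis Genome 2.0 arrays. The authors deposited 1 intensity a probe set on a linear scale. MAS5 made these values, per the submitters' processing notes (version: not given in the sources used here). Every deposited array has a 2% trimmed mean of 500, so arrays had been scaled alike, and no per-spot or detection data were used here.

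Intensities were taken as log2 with no value added. To be tested, a probe set had to exceed the array median on both arrays of 1 stage or more, the median being taken over the 32539 probe sets that are not controls, which left 23403. Stage means were fitted with limma 3.58.1 in R 4.3.3 over all 30 arrays (15 residual degrees of freedom, empirical Bayes with trend and robust options). Contrasts were stage 31 over 21, stage 48 over 31 and 14 neighbouring steps, and an F test covered all stages. P-values were Benjamini-Hochberg adjusted over all tested probe sets and called at 0.05. The scripts were tested on simulated data. Symbols come from the platform annotation: 15495 probe sets have 1 symbol, 279 several and 16765 none, and 2 probe sets that pair a lens symbol with another were left out. All 12 lens symbols were found unchanged in RefSeq v10.1.

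From every other list, up to 3 called genes a comparison were named, those of largest log2 change whose brighter stage exceeded the floor, with 1 probe set a gene (the highest mean). The 10 genes most alike were those with the highest r among tested genes spanning at least 4-fold. The lens genes and the lists (other crystallins, fibre structure, transcription factors, signals, photoreceptors, pigment epithelium, other retina, whole embryo) were chosen with earlier results of these data known, so their counts are descriptions and not independent support. Alternatives were quantile normalization, median centring, scaling to poly-A controls, no filter, a 75th percentile filter, 50 added before the log, plain empirical Bayes, a replicate block, a threshold of 0.01, a 2-fold minimum, the 2 stages alone, array weights and leaving out each array.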

Additional observations from a re-analysis of the deposited data

How the results depend on the processing

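The 8 calls of stage 31 over 21 and the 9 of stage 48 over 31 stayed within 1.5 times of these counts under every alternative run, and no log2 change of a called lens probe set reversed its sign. Leaving out 1 array gave 6 to 9 calls in both intervals and 9 to 9 by the F test. Step counts moved more. The 19 calls over all 14 steps became 42 with 50 added before the log, 40 with the 2 stages alone and 7 at an adjusted p under 0.01, and ranged from 13 to 23 without 1 array. Among all tested probe sets the calls also moved with the setting. No share of them was computed for the totals over 14 steps, and none is given for the fits without 1 array. With 50 added, the steps from stage 28 over 26 to stage 48 over 43 gave, in order, 5, 9, 9, 5 and 9 calls. The shares of all tested probe sets called higher there were 17.3%, 15.7%, 19.3%, 19.2% and 26.1%. The 2 stages alone gave 5, 8, 9, 5 and 9, against 12.7%, 13.2%, 19.3%, 18.5% and 24.5%. At an adjusted p under 0.01 the same steps gave 1, 3, 1, 0 and 1. Of all 23403 tested probe sets, 3283, 2863, 4066, 4781 and 8476 were then called in either direction. Array weights, chosen after seeing the data, gave 5 at 37-38 over 31. Among all tested probe sets, calls in either direction at that step went from 6538 to 8590. Without 1 array these steps gave 1 to 4, 3 to 7, 0 to 3, 0 to 1 and 1 to 3. The cause was not tested, beyond the replicate spreads given with the steps.

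With the 75th percentile of each array as the floor, the first stage was 31 for cryba1.L, cryba4.S and lim2.L, 37-38 for cryba2.S, crybb1.L and crybb1.S, 43 for mip.L and 48 for cryaa.S, and mip.S had none. Without 1 array the first stage ranged from 21 to 26 for cryba2.S and from 37-38 to 48 for mip.S. It stayed at 43 for cryaa.S, 28 for cryba1.L and cryba4.S, 31 for both crybb1 copies, 23 for lim2.L and 37-38 for mip.L. A stage with an array left out needed only its other array over the floor. The first stage could therefore stay or move earlier, but not later. Of the 10 genes most alike, 6 were kept under quantile normalization. Same-numbered replicates did not deviate together (r -0.06 to 0.04 over 105 stage pairs, none over 0.1), so no pairing by number was seen. A pairing that touches few probe sets would not show in these r. With the replicate block, the 19 step calls became 18, stage 48 over 43 gave 2, and the counts of 8, 9 and 9 for the intervals and the F test stayed. Signals under the floor limit what can be said of cryaa.S before stage 43, of mip.S before stage 48 and of all lens probe sets before stage 23.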

Other observations

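Genes of lens-inducing signals gave calls in both directions. Of 17 tested genes for growth factors, receptors and their feedback inhibitors, 2 were called higher and 9 lower at stage 31 over 21, and 4 higher and 9 lower at stage 48 over 31 (median log2 changes -0.40 and -0.49). Of all tested probe sets, 26.9% were called higher and 25.4% lower in the first comparison, and 29.7% higher and 39.7% lower in the second, and the difference from them was not tested. The FGF ligand fgf8.L read 397 and 369.8 at stage 31, against 941 and 976 at stage 21 (adjusted p = 9e-08). Its feedback inhibitor spry2.S fell by 1.37 on the log2 scale over the same interval and then read 497 and 431 at stage 48, against 140.3 and 158 at stage 31 (adjusted p = 7.1e-11). The FGF receptor fgfr3.L was 1.89-fold higher at stage 31 than at stage 21. At stage 48 over 31, the Wnt antagonist sfrp2.S and the Notch target hey1.S fell by 1.65 and 1.44 on the log2 scale.

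Genes of other retinal neurons and glia gave 2 calls higher and 1 lower of 7 tested at stage 31 over 21. At stage 48 over 31 they gave 2 higher and 3 lower (median log2 changes 0.06 and -0.57 in these intervals). Of all tested probe sets, 26.9% were called higher and 25.4% lower in the first comparison, and 29.7% higher and 39.7% lower in the second. Calb1.L, a calcium-binding protein of several neurons, read 2508 and 3343 at stage 48, against 463 and 348 at stage 31 (adjusted p = 0.0015), and rlbp1.L, a retinal carrier of Müller glia and pigment epithelium, read 1541 and 1489.6 at stage 48, against 281 and 286 at stage 31 (adjusted p = 1.3e-07). Prdm1.S fell by 1.85 over this interval. Of 11 tested markers of other tissues, 4 were called higher and none lower at stage 31 over 21. At stage 48 over 31, 3 were called higher and 1 lower (median log2 changes 0.55 and 0.47 in these intervals). The shares of all tested probe sets are the same as for the retinal genes. Haemoglobin hba2.L read 18604 and 20158 at stage 48, against 1239 and 642 at stage 31. The keratin krt12.4.S read 38.3 and 25.2 at stage 48, against 19741 and 17740.4 at stage 31 (at least 102-fold lower, adjusted p = 1.4e-07). The neurofilament nefm.L was at least 6.48-fold higher at stage 31 than at stage 21, and the synaptic protein snap25.L was 2.51-fold higher.

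At stage 31, ttr.L, the thyroxine carrier transthyretin, read 1248 in replicate 1 and 675 in replicate 2, a split in the same direction as that of the lens genes. Not every gene called higher at stage 31 over 21 was split so: hspb1.S read 529 and 598 and rlbp1.L 281 and 286. Of 954 probe sets at least 2-fold brighter at stage 37-38 than at stage 28, 70.6% were higher in replicate 1.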
